A study of Mus musculus with 15 samples.

Results

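Cytotoxic and type 1 lymphocytes are natural killer (NK) cells, CD8+ T cells and interferon-γ-producing CD4+ T cells. They kill by releasing granules in which perforin opens the target membrane to serine proteases, the granzymes, and they are recruited by chemokines. Allergic conjunctivitis is usually described through the opposite arm, type 2 immunity, in which IL-4 and IL-13 signal through IL-4Rα. A set of 10 genes of the cytotoxic and type 1 program (Ccl5, Gzma, Gzmb, Gzmk, Prf1, Nkg7, Ifng, Klrd1, Cxcr3 and Cxcr6) is described here in mouse conjunctiva. The members were chosen by their symbols, and each matched 1 of the 55487 genes in the count table. Ccl5 was in addition selected on its raised level under IL-4Rα blockade, so its values are given as a description in every comparison, without a test.

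The study asked how blockade of IL-4Rα changes the conjunctiva in a mouse model of conjunctivitis that follows skin sensitization. All 15 libraries came from conjunctiva of WT BALB/c mice (BALC/c in the labels), females of 9 to 12 weeks by the study's methods, whose skin was sensitized with MC903 + OVA. MC903 (calcipotriol), at 2.5 nmol per day for 7 days, evokes an inflammation like atopic dermatitis, and ovalbumin (OVA) is the antigen. The PBS group (n = 5) was challenged on the eye with PBS, and neither the labels nor the methods name an antibody for it. The isotype group (n = 5) and the anti–IL-4Rα group (n = 5) were challenged with OVA eye drops (250 μg per drop, once daily for 7 days, from day 18 to day 24) and received isotype control or an antibody against IL-4Rα (25 mg/kg on days 10, 14, 18 and 21). All 3 groups were sensitized, so none shows unsensitized conjunctiva. The PBS group differs from the anti–IL-4Rα group in both the challenge and the antibody. Whether it also differs from the isotype group in the antibody is not stated, so isotype against PBS cannot be credited to the challenge alone. The title of each library carries a mouse number of its own, 5 per group. The methods report 2 outliers without naming them, and all 15 libraries were used.

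Libraries held 48622246 to 87745024 counts. The conjunctival and eyelid epithelium markers summed to between 9395 and 16609 counts per 1000000 counts of a library (CPM) in the 15 libraries, so the epithelium of the labelled tissue was present. Markers of lacrimal acini, the secretory cells of the tear gland, differed widely between libraries: their sum ran from 18.8 to 52707 CPM in the PBS group, from 51.5 to 33526 CPM in the isotype group and from 1149 to 156685 CPM in the anti–IL-4Rα group. None of the 8 lacrimal genes passed the edgeR test in any comparison (2 were higher at an unadjusted p under 0.05 against PBS and 1 against isotype, and DESeq2 called 1 in each), and their median log2 difference was 2.93 for anti–IL-4Rα against PBS and 2.67 against isotype. The anti–IL-4Rα replicates 1, 4 and 5 held the most. Calls in comparisons with the anti–IL-4Rα group that were lost without them are named as such. What the lacrimal content contributes to the results was not tested, except by entering it as a covariate and by leaving out these 3 libraries.

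The members were weakly expressed. Of the 10, 8 passed a filter on low values (10 counts or more, reached in 5 libraries or more), and each of these 8 reached 10 counts in all 15 libraries, so none entered through 1 group alone. Gzmk reached 10 counts in no library and Ifng in 1. Without Ccl5, the summed level of the other 9 genes was 6.74 to 9.25 CPM in the 5 PBS libraries, 12.5 to 33.1 CPM in the isotype group and 8.55 to 15.5 CPM in the anti–IL-4Rα group. The isotype libraries lay above the PBS libraries in this sum, and the anti–IL-4Rα group overlapped both. In bulk tissue, fewer cells of a type and less RNA per cell cannot be told apart.

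**Figure D1:**
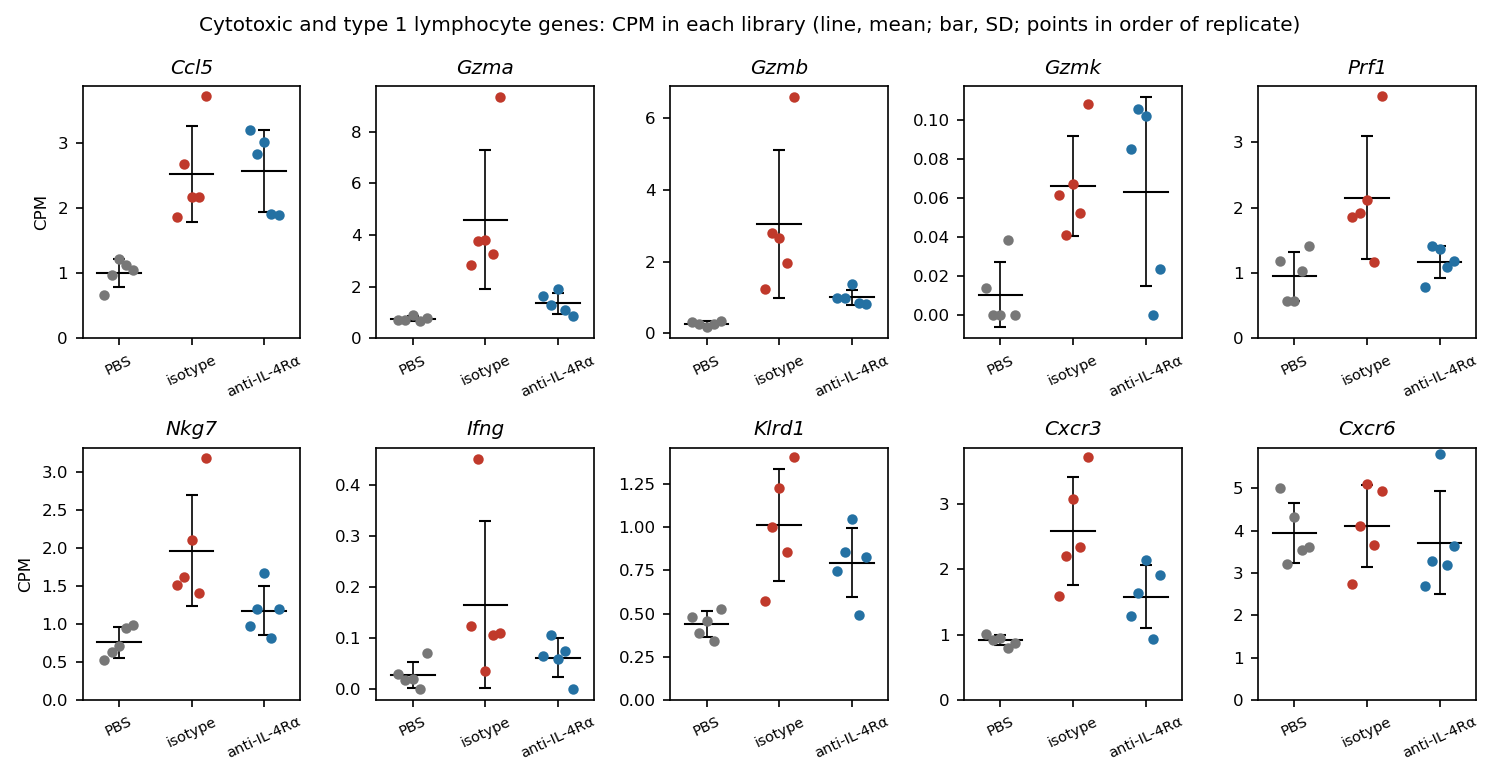
CPM of each of the 10 genes (y axis, 1 panel per gene, scales differ) in the PBS, isotype and anti–IL-4Rα groups; each point is a library, the line is the mean and the bar is the SD (n = 5). Ccl5 lies at 1.86 CPM or above in both OVA-challenged groups and at 1.22 CPM or below in the PBS group, while the anti–IL-4Rα libraries of Gzma all lie below the isotype libraries.

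Ccl5 encodes the chemokine CCL5 (RANTES), a ligand of Ccr1 and Ccr3 made by memory and effector T cells, NK cells and some myeloid cells. It lies on chromosome 11 from 83525778 to 83530518, on the minus strand (GRCm38). Its level was 0.66, 0.97, 1.22, 1.13 and 1.05 CPM in PBS replicates 1 to 5, 1.86, 2.68, 2.17, 2.17 and 3.72 CPM in the isotype replicates and 3.20, 2.83, 3.02, 1.90 and 1.89 CPM in the anti–IL-4Rα replicates. All 10 OVA-challenged libraries were above all 5 PBS libraries, and the isotype and anti–IL-4Rα groups overlapped over most of their range. Isotype against PBS gave a log2 fold change of 1.33 ± 0.23 (SE), anti–IL-4Rα against PBS one of 1.36 ± 0.23 and anti–IL-4Rα against isotype one of 0.03 ± 0.22. Without the 3 anti–IL-4Rα libraries richest in lacrimal markers, the last 2 values were 1.55 and 0.22. The 2 comparisons against PBS share the PBS libraries.

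Granzyme A, a tryptase of NK cell and CD8+ T cell granules, showed another order of the groups. Gzma (chromosome 13, 113093825 to 113100981, minus strand) stood at 0.70, 0.73, 0.92, 0.69 and 0.77 CPM in the PBS replicates, at 2.84, 3.78, 3.80, 3.25 and 9.33 CPM in the isotype replicates and at 1.64, 1.28, 1.91, 1.11 and 0.87 CPM in the anti–IL-4Rα replicates. Each isotype library was above each library of both other groups, isotype replicate 5 stood far above the others, and the anti–IL-4Rα and PBS groups overlapped only at their edge. Gzma rose 6.02-fold in isotype against PBS (log2 fold change 2.59 ± 0.32, adjusted p = 0.000567, edgeR quasi-likelihood test). Unless another test is named, adjusted p-values of single genes come from this test, adjusted over 19006 genes after Benjamini and Hochberg. Under anti–IL-4Rα, Gzma fell to 0.298 times its isotype level (log2 fold change -1.75 ± 0.31, adjusted p = 0.00537). The difference between anti–IL-4Rα and PBS was 0.84 ± 0.31 on the log2 scale and did not pass the test (adjusted p = 0.127), except when isotype replicate 5 was left out (0.84, adjusted p = 0.0384).

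Granzyme B, the aspartate-specific protease that activates caspases in the target cell, had the largest fold change of the 8 tested members in isotype against PBS. For Gzmb (chromosome 14, 56258838 to 56262260, minus strand) the PBS replicates gave 0.32, 0.25, 0.18, 0.25 and 0.35 CPM, the isotype replicates 1.25, 2.80, 2.66, 1.97 and 6.57 CPM and the anti–IL-4Rα replicates 0.98, 0.99, 1.37, 0.84 and 0.83 CPM. The PBS libraries lay below all others, and 1 anti–IL-4Rα library (replicate 3) lay above the lowest isotype library. Gzmb rose 11.2-fold in isotype against PBS (log2 fold change 3.49 ± 0.39, adjusted p = 0.000345) and was lower in anti–IL-4Rα than in isotype by a log2 fold change of -1.60 ± 0.35 (adjusted p = 0.0146). It was the 1 member that also passed the test in anti–IL-4Rα against PBS (3.70-fold, log2 fold change 1.89 ± 0.39, adjusted p = 0.0266). That call was lost with the lacrimal markers as a covariate (2.04, adjusted p = 0.0605), without the 3 libraries richest in them (2.13, adjusted p = 0.124), on log2(CPM + 1) in limma (0.65, adjusted p = 0.111), and also without any 1 of PBS replicates 1 to 4 or anti–IL-4Rα replicates 1 and 5 (adjusted p up to 0.0739).

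The 2 granzyme calls of anti–IL-4Rα against isotype kept their direction in every setting tried. With the lacrimal markers as a covariate, Gzma gave -1.66 (adjusted p = 0.0149) and Gzmb -1.49 (adjusted p = 0.0442). With the 3 libraries richest in lacrimal markers left out, which leaves 2 anti–IL-4Rα libraries, they gave -1.52 (adjusted p = 0.191) and -1.36 (adjusted p = 0.257) and were no longer called. Without isotype replicate 5, the highest library of both genes, the values were -1.32 and -1.11 and stayed called. Fitted on the 2 groups alone, Gzmb kept its value but missed the threshold (-1.60, adjusted p = 0.0549).

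Granzyme K, which marks a different subset of T cells, was at the edge of detection. Gzmk (chromosome 13, 113171608 to 113225908, minus strand, 70.627 kb from Gzma) had 1, 0, 0, 2 and 0 counts in the PBS replicates, 3, 4, 4, 3 and 6 counts in the isotype replicates and 4, 7, 7, 0 and 1 counts in the anti–IL-4Rα replicates. The isotype libraries lay above the PBS libraries, and the anti–IL-4Rα group spanned both. On the exact permutation test of log2 CPM (two-sided), isotype against PBS gave p = 0.00794, the smallest the test can give, and anti–IL-4Rα against isotype gave p = 0.667 (neither adjusted for the number of comparisons). With no filter on low counts, edgeR gave an adjusted p = 0.0899 for isotype against PBS, so the difference did not pass across genes. Its annotated span overlaps Esm1 on the other strand.

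Perforin, the pore former of the granule, and Nkg7, a granule membrane protein, moved by less than the granzymes A and B. Prf1 (chromosome 10, 61297833 to 61304680, plus strand) stood at 1.18, 0.58, 0.57, 1.03 and 1.41 CPM in PBS, 1.86, 1.91, 2.12, 1.17 and 3.70 CPM in isotype and 0.79, 1.42, 1.37, 1.09 and 1.18 CPM in anti–IL-4Rα replicates. It rose 2.25-fold in isotype against PBS (log2 fold change 1.17 ± 0.31, adjusted p = 0.0218), although 1 isotype library lay within the PBS range. The call was lost without PBS replicate 2 or without isotype replicate 5 (adjusted p up to 0.0550). Nkg7 (chromosome 7, 43437073 to 43438249, plus strand) stood at 0.52, 0.63, 0.71, 0.96 and 0.98 CPM in PBS, 1.51, 1.62, 2.10, 1.41 and 3.20 CPM in isotype and 0.98, 1.21, 1.68, 0.82 and 1.20 CPM in anti–IL-4Rα replicates. All isotype libraries were above all PBS libraries, and Nkg7 rose 2.59-fold (log2 fold change 1.38 ± 0.26, adjusted p = 0.00537). Anti–IL-4Rα against isotype gave log2 fold changes of -0.87 ± 0.31 for Prf1 (adjusted p = 0.0701) and -0.73 ± 0.26 for Nkg7 (adjusted p = 0.0691), neither of which passed the test in edgeR. DESeq2 called both (adjusted p = 0.0325 and 0.0365).

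Interferon-γ, the cytokine that defines the type 1 response, was barely detected. Ifng (chromosome 10, 118441046 to 118445892, plus strand) had 2, 1, 1, 0 and 4 counts in the PBS replicates, 6, 44, 2, 6 and 6 counts in the isotype replicates and 3, 7, 4, 3 and 0 counts in the anti–IL-4Rα replicates. A single library, isotype replicate 2, held 44 of the 64 isotype counts after rounding, and the groups overlapped. The exact permutation test gave p = 0.0159 for isotype against PBS, p = 0.198 for anti–IL-4Rα against PBS and p = 0.175 for anti–IL-4Rα against isotype, and the unfiltered edgeR fit of isotype against PBS gave an adjusted p = 0.0519. At this depth, no difference in Ifng that passes across genes was detectable.

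Klrd1 encodes CD94, a lectin-like receptor chain of NK cells and some CD8+ T cells. Its levels (chromosome 6, 129591782 to 129598775, plus strand) were 0.48, 0.39, 0.46, 0.34 and 0.53 CPM in PBS, 0.57, 1.0, 1.23, 0.86 and 1.41 CPM in isotype and 0.75, 0.86, 1.05, 0.49 and 0.83 CPM in anti–IL-4Rα replicates. The isotype libraries were all above the PBS libraries and shared most of their range with the anti–IL-4Rα libraries. Klrd1 rose 2.29-fold in isotype against PBS (log2 fold change 1.20 ± 0.24, adjusted p = 0.00668). Anti–IL-4Rα gave 0.86 ± 0.24 against PBS (adjusted p = 0.0632) and -0.34 ± 0.23 against isotype (adjusted p = 0.318), neither past the threshold. DESeq2 called the first of these 2 (adjusted p = 0.0193).

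The 2 chemokine receptors went apart. Cxcr3, which guides type 1 T cells and NK cells toward Cxcl9, Cxcl10 and Cxcl11, lies on chromosome X from 101731535 to 101734269 (minus strand). It stood at 1.0, 0.92, 0.96, 0.80 and 0.88 CPM in PBS, 1.59, 2.20, 3.08, 2.34 and 3.72 CPM in isotype and 1.28, 1.64, 2.14, 0.94 and 1.91 CPM in anti–IL-4Rα replicates. Every isotype library was above every PBS library, and 1 anti–IL-4Rα library was within the PBS range. Cxcr3 rose 2.83-fold in isotype against PBS (log2 fold change 1.5 ± 0.24, adjusted p = 0.00207). Its log2 fold change was 0.80 ± 0.24 for anti–IL-4Rα against PBS (adjusted p = 0.0702) and -0.70 ± 0.23 for anti–IL-4Rα against isotype (adjusted p = 0.0552). DESeq2 put both past the threshold (adjusted p = 0.0205 and 0.0239).

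Cxcr6, the receptor of Cxcl16 found on tissue-resident and type 1 T cells and some innate lymphocytes, had the highest level per kilobase of exon in PBS tissue and did not pass the test in any comparison. Its levels (chromosome 9, 123806475 to 123811760, plus strand) were 5.00, 3.22, 4.32, 3.54 and 3.62 CPM in PBS, 2.74, 4.11, 5.10, 3.65 and 4.95 CPM in isotype and 2.68, 3.29, 5.80, 3.19 and 3.64 CPM in anti–IL-4Rα replicates. The 3 groups covered nearly the same range. The log2 fold change was 0.06 ± 0.21 for isotype against PBS (adjusted p = 0.876), -0.08 ± 0.21 for anti–IL-4Rα against PBS (adjusted p = 0.866) and -0.14 ± 0.21 for anti–IL-4Rα against isotype (adjusted p = 0.667), and the last 2 changed sign with the lacrimal markers as a covariate. The annotated span of Cxcr6 overlaps Fyco1 on the opposite strand. The use of strand in the counting is not stated, and whether reads of the 2 genes were counted apart was not tested.

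**Figure D2:**
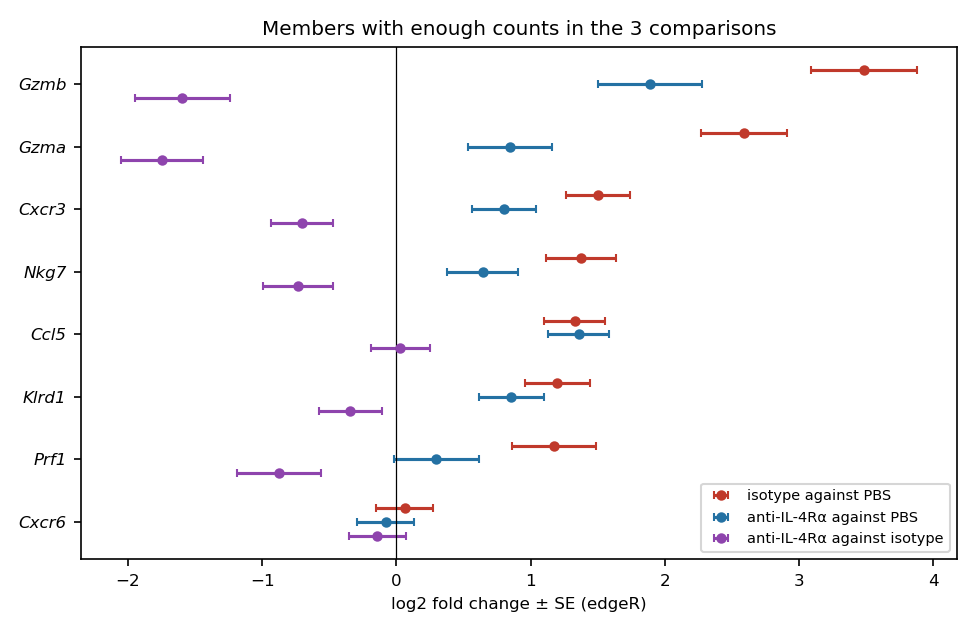
Log2 fold change with its SE (x axis) of the 8 members with enough counts (y axis) in the 3 comparisons, from edgeR. For isotype against PBS the values run from 0.06 for Cxcr6 to 3.49 for Gzmb, and for anti–IL-4Rα against isotype from -1.75 for Gzma to 0.03 for Ccl5.

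Counted over the 9 members other than Ccl5, of which 7 were tested, 6 were called higher in isotype against PBS and none lower. Over all genes tested, 9.53% were called higher and 7.49% lower in this comparison. The median log2 fold change of the 7 was 1.38, against -0.01 over all genes. Of the 9, 6 had every isotype library above every PBS library, against 6.85% of the genes tested, and Gzmk, with 6 counts at most in these libraries, is 1 of the 6. The 9 include Gzmk and Ifng, which are not among the genes tested, so the 2 sets differ in their filter. In anti–IL-4Rα against PBS, 1 of the 7 was called higher and none lower, against 2.28% and 1.44% of all genes. The same gene, Gzmb, was the 1 of 9 that did not overlap between the groups, against 2.98% of genes with every library higher. In anti–IL-4Rα against isotype, 2 of the 7 were called lower and none higher, against 8.13% and 6.73% of all genes, and 1 of 9, Gzma, had every anti–IL-4Rα library lower, against 4.96%. All 7 had negative log2 fold changes in that comparison, with a median of -0.73 against 0.01 over all genes. The members were proposed with earlier results of these data known, and the comparisons share groups, so these counts are a description.

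Because Ccl5 and Gzma were measured in the same libraries, their counts can be set against each other without any scaling. Per count of Ccl5, the PBS libraries held 0.610 to 1.06 counts of Gzma (median 0.754). The isotype libraries held 1.41 to 2.51 (median 1.53), and those under anti–IL-4Rα held 0.452 to 0.633 (median 0.513). The isotype libraries were apart from both other groups. For Gzmb to Ccl5 the ranges were 0.145 to 0.479, 0.670 to 1.77 and 0.307 to 0.454, again with the isotype group apart. For Nkg7 to Ccl5 the PBS and isotype ranges were alike, at 0.580 to 0.933 and 0.603 to 0.969, and the anti–IL-4Rα range was 0.307 to 0.638. For Cd8a, the CD8 coreceptor, the ratio was 0.367 to 0.938 in PBS, 0.431 to 0.824 in isotype and 0.213 to 0.519 in anti–IL-4Rα libraries. No test was made of these ratios, since Ccl5 was picked on its level.

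Levels of different genes were compared per kilobase of exon. In the PBS group Cxcr6 was highest at 2.04 ± 0.37 CPM per kb (SD, n = 5), above every library of Ccl5 at 1.05 ± 0.22. Ccl5, Nkg7 (0.83 ± 0.22) and Gzma (0.76 ± 0.09) followed without a gap between neighbours, then Cxcr3, Prf1 and Klrd1, with Gzmb far down at 0.19 ± 0.05. In the isotype group Gzma led at 4.57 ± 2.66 CPM per kb, before Ccl5 at 2.62 ± 0.76, Nkg7 at 2.15 ± 0.80, Cxcr6 at 2.13 ± 0.50 and Gzmb at 2.12 ± 1.44, and neighbours in this order overlapped down to Klrd1. In the anti–IL-4Rα group Ccl5 led at 2.67 ± 0.65 CPM per kb, before Cxcr6 at 1.93 ± 0.63 and Gzma at 1.36 ± 0.41, again with overlap between neighbours. Ifng and Gzmk closed the order in all 3 groups, at 0.13 CPM per kb or below on average.

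The bases just before the start of 4 members are shown because Gzma, Gzmb and Prf1, the effector genes of the granule that were called in isotype against PBS, can be read beside Cxcr6, which was not called. They are the 150 bases upstream of the RefSeq start on GRCm38.p6, 5′ to 3′ on the gene's strand. Capitals mark where 1 of 5 motifs matched on either strand. Distances count from the RefSeq start, and the Gzmb window begins at 56262335, upstream of the gene end of 56262260 given above.
Gzma, chr13:113100982-113101131, minus strand: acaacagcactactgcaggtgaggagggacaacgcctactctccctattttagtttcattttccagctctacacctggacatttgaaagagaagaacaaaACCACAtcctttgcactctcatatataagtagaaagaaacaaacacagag
Gzmb, chr14:56262335-56262484, minus strand: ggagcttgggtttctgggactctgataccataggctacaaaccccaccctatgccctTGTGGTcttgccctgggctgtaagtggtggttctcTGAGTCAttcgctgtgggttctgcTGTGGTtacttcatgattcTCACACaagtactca
Prf1, chr10:61297686-61297835, plus strand: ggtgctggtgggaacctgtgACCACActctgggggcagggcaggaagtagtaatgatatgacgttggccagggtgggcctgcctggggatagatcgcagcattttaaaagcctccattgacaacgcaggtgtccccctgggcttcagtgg
Cxcr6, chr9:123806327-123806476, plus strand: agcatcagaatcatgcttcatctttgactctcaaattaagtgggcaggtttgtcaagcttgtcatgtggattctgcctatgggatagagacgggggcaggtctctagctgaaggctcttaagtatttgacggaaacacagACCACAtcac
The motifs were TCACAC (T-box factors, such as those encoded by Tbx21 and Eomes), TGTGGT (Runx factors), TGANTCA (AP-1), TTCNNNNGAA (STAT6, the factor activated by IL-4Rα) and TTCNNNGAA (other STAT factors), and no 2 matches overlapped. Gzmb held 4 of the matches, 2 of TGTGGT at 93 and 34 bases before the start, 1 of TGANTCA at 58 and 1 of TCACAC at 15. Gzma held TGTGGT at 50 bases, Prf1 at 130 and Cxcr6 at 10, each on the minus strand of the gene. In the 250 bases before the start, TGTGGT was found in 14.045% of 32851 RefSeq windows, TCACAC in 12.3%, TGANTCA in 6.75%, TTCNNNGAA in 7.02% and TTCNNNNGAA in 5.85%. The table held 8 of the 10 members, without Ccl5 and Klrd1. None of the 8 had TTCNNNNGAA in its window. A match describes the letters and no measurement here bears on binding.

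Of the genes that encode NK cell receptors, 8 of the 11 tested (of 14 listed) rose in isotype against PBS and none fell. The median log2 fold change was 1.13. Over all genes tested, 9.53% were called higher and 7.49% lower, with a median of -0.01, and these shares also stand beside the lists that follow. Among the 8 NK cell receptor genes were Klrb1c (NK1.1 in other strains) with 2.06 ± 0.51 (adjusted p = 0.0164), Ncr1 (NKp46) with 1.75 ± 0.32 (adjusted p = 0.00414), and Klri2, Klrg1, Klrc1 and Klrk1 with log2 fold changes of 1.43, 1.40, 1.40 and 1.13. Klrb1c and Klri2 were low: Klrb1c had 1 to 11 counts in the PBS libraries, 9 to 34 in the isotype and 2 to 22 in the anti–IL-4Rα libraries. Klri2 had 3 to 10, 8 to 26 and 4 to 19. Whether such genes passed the filter on low values mainly through the isotype group was not checked. Klrc1 encodes NKG2A, the partner chain of CD94. In anti–IL-4Rα against PBS, Klrg1 passed the test (1.31 ± 0.31, adjusted p = 0.0363; 1.70, adjusted p = 0.0588 without the 3 libraries richest in lacrimal markers, and not called in limma), and in anti–IL-4Rα against isotype Cd244a was lower (-0.83 ± 0.24, adjusted p = 0.0370). Ncr1, which marks NK cells and related innate lymphocytes, stood at 0.281 to 0.573 CPM in the 5 PBS libraries, 1.03 to 2.27 CPM in the isotype group and 0.402 to 1.19 CPM in the anti–IL-4Rα group. Its log2 fold change of anti–IL-4Rα against isotype was -0.85 ± 0.31 (adjusted p = 0.0738).

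Of 17 genes of the T cell receptor complex, its coreceptors and its proximal signaling, 8 rose in isotype against PBS, 1 fell and 8 did not pass the test, with a median log2 fold change of 0.44. The CD8 chains Cd8a and Cd8b1 rose by log2 fold changes of 1.56 ± 0.24 (adjusted p = 0.00176) and 1.5 ± 0.39 (adjusted p = 0.0208), and Cd4 by 1.70 ± 0.32 (adjusted p = 0.00506). Cd2, Lck and Trac gave 1.45, 1.19 and 0.94. Cd3e, an invariant chain of the receptor in all T cells, gave 0.23 ± 0.24 and did not pass (adjusted p = 0.556). Trdc, the constant region of the γδ T cell receptor δ chain, was the 1 gene that fell (-0.87 ± 0.27, adjusted p = 0.0381; -0.86, adjusted p = 0.0522 without the 3 libraries), with 2.58 to 5.01 CPM in PBS libraries and 1.12 to 2.64 CPM in isotype libraries. Cd2 (1.13 ± 0.24, adjusted p = 0.0277) and Cd4 (1.5 ± 0.32, adjusted p = 0.0303) were also higher in anti–IL-4Rα than in PBS, where Cd8a gave 0.90 ± 0.24 (adjusted p = 0.0542). Both calls were lost without the 3 libraries richest in lacrimal markers (1.48, adjusted p = 0.0726 for Cd2, and 1.88, adjusted p = 0.0773 for Cd4). None of the 17 passed between anti–IL-4Rα and isotype in edgeR (2 were lower at an unadjusted p under 0.05, and DESeq2 called 1 lower). Cd3e and Trdc were singled out after their values were seen.

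Of 19 type 1 transcription factors and cytokine signaling genes, 9 rose and 1 fell in isotype against PBS, with a median log2 fold change of 0.55. The T-box factor Eomes gave 2.04 ± 0.46 (adjusted p = 0.0114), Stat4, which relays IL-12, gave 1.66 ± 0.27 (adjusted p = 0.00241), Il2rb, the shared β chain of the IL-2 and IL-15 receptors, gave 1.40 ± 0.25 (adjusted p = 0.00373) and Il18rap, of the IL-18 receptor, gave 1.05 ± 0.23 (adjusted p = 0.00939). Il12a, the p35 subunit of IL-12, fell (-1.11 ± 0.26, adjusted p = 0.0142). Against PBS, the anti–IL-4Rα group had none of the 19 past the adjusted threshold in edgeR or DESeq2, with 4 higher and 1 lower at an unadjusted p under 0.05 in edgeR. Against isotype, 5 were lower under anti–IL-4Rα, among them Il12rb2, the inducible chain of the IL-12 receptor (-1.16 ± 0.32, adjusted p = 0.0314), and Stat4 (-0.87 ± 0.26, adjusted p = 0.0420), and Il12a was higher (1.02 ± 0.27, adjusted p = 0.0271). Il12a was low, with 3 to 14 counts in the isotype libraries and 7 to 21 under anti–IL-4Rα. Eomes was low in the PBS libraries, with 4 to 17 counts, against 31 to 87 in the isotype libraries. The other IL-12 subunit, Il12b, and the other receptor chain, Il12rb1, were not called in this comparison (adjusted p = 0.999 and 0.904).

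A list of 11 genes held ligands and receptors of the members' chemokine axes together with related chemokines (Ccl3, Ccl4 and the pair Xcl1 and Xcr1). Of these, 7 rose in isotype against PBS and none fell, with a median log2 fold change of 2.08. The Ccl5 receptor Ccr1 gave 2.14 ± 0.27 (adjusted p = 0.000641). The chemokines Ccl3 and Ccl4 gave 2.46 ± 0.44 and 1.85 ± 0.47. The paper counts these 2 chemokines among its basophil signature genes. Which cells carried the transcripts of this list was not tested. The Cxcr3 ligands Cxcl10 and Cxcl11 gave 2.32 ± 0.54 and 2.14 ± 0.52, and Cxcl9 gave 2.08 ± 0.71 (adjusted p = 0.0587). Cxcl16, the ligand of Cxcr6, stood at 63.0 ± 4.6, 65.8 ± 8.6 and 64.4 ± 10.4 CPM (SD, n = 5) in the PBS, isotype and anti–IL-4Rα groups and passed no test, like its receptor. Cxcl9 and Cxcl16 were singled out after their values were seen. Ccr3 was also higher in anti–IL-4Rα than in PBS (log2 fold change 1.63 ± 0.36, adjusted p = 0.0309). Ccr1 was lower in anti–IL-4Rα than in isotype (-1.25 ± 0.27, adjusted p = 0.0127).

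Of 17 granule and death-ligand genes outside the set, 11 were tested and 4 rose in isotype against PBS: Srgn, the granule proteoglycan serglycin (1.54 ± 0.25, adjusted p = 0.00228), Cst7, cystatin F (1.46 ± 0.30, adjusted p = 0.00699), Ctsc, the cathepsin that activates progranzymes (0.67 ± 0.08, adjusted p = 0.000409), and Ctsw, a cathepsin of cytotoxic cells (0.50 ± 0.15, adjusted p = 0.0315). The median of the 11 was 0.07. Srgn and Ctsc are also made by mast cells and myeloid cells. Both were lower in anti–IL-4Rα than in isotype (-1.02 ± 0.25, adjusted p = 0.0198, and -0.33 ± 0.08, adjusted p = 0.0181), and Ctsc was higher in anti–IL-4Rα than in PBS (0.34 ± 0.08, adjusted p = 0.0360). The granzymes Gzmc and Gzmm were tested and not called in any comparison, and Gzmd, Gzme, Gzmf, Gzmg and Gzmn had at most 3 counts in any library. With the 3 libraries richest in lacrimal markers left out, no gene of these 5 lists (NK cell receptors, T cell genes, type 1 factors, chemokine axes and granule genes) stayed called in anti–IL-4Rα against isotype, and Ccr3 alone stayed called in anti–IL-4Rα against PBS (2.16, adjusted p = 0.0395), so the call of Ctsc there was lost. In isotype against PBS 7, 8, 10, 8 and 4 were then called. Over all genes, that setting called 44 in anti–IL-4Rα against isotype and 19 in anti–IL-4Rα against PBS, against 2826 and 707 with all libraries. It leaves 2 anti–IL-4Rα libraries, and the lost calls are not particular to these lists.

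**Figure D3:**
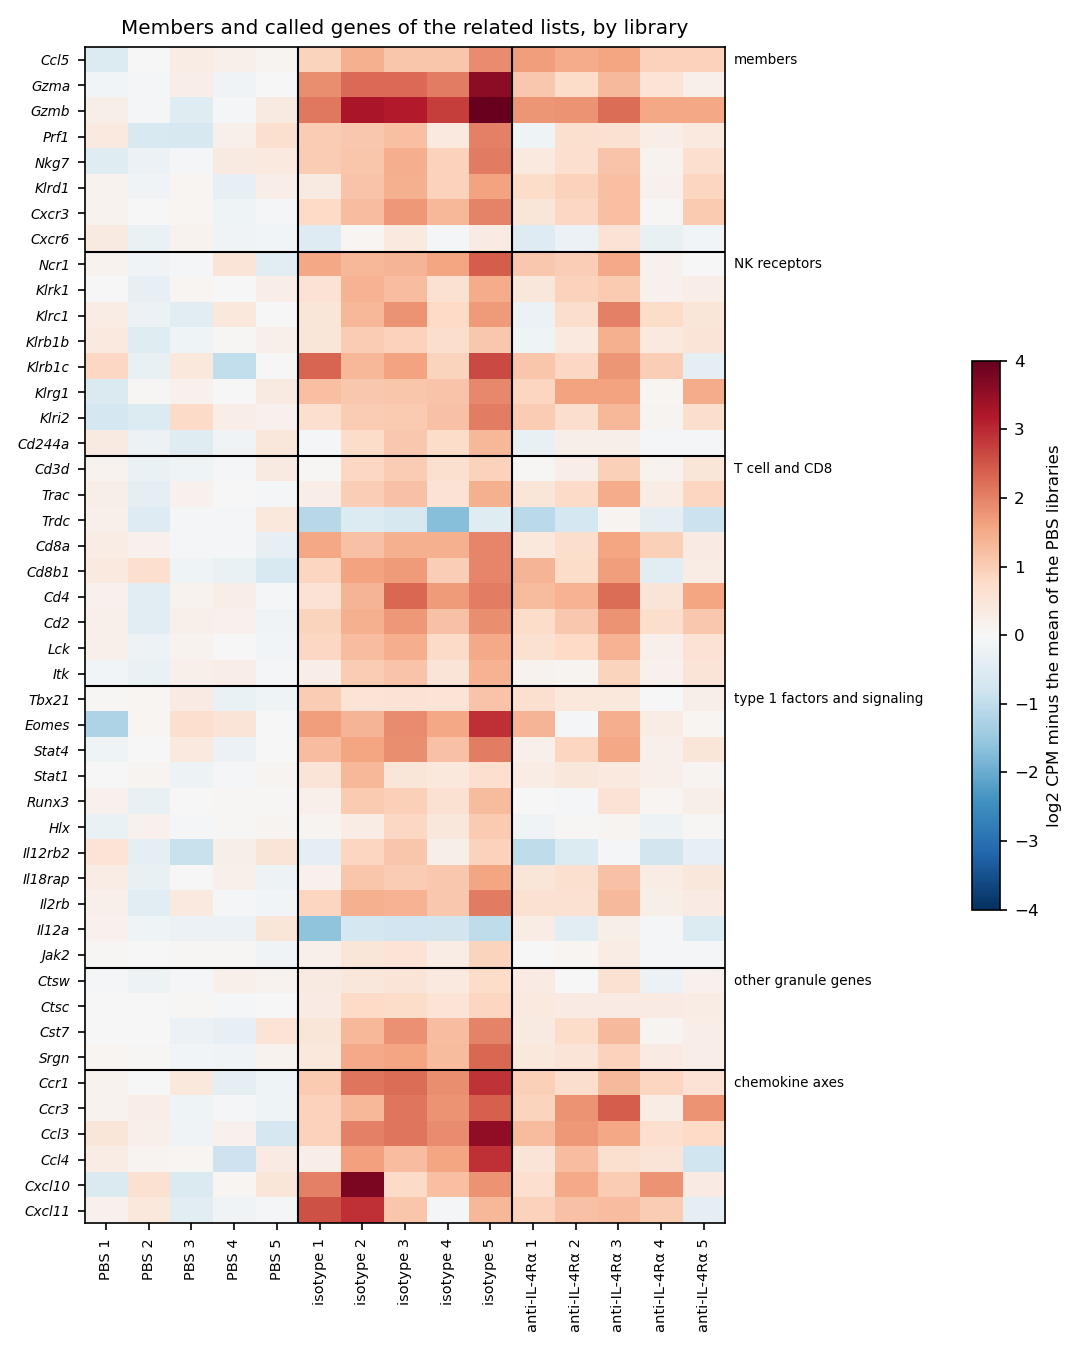
Log2 CPM minus the mean of the 5 PBS libraries (color, red higher and blue lower, ending at 4 in either direction) for the 8 tested members and for genes of the 5 related lists that were called in at least 1 comparison and are reported here (rows), in the 15 libraries (columns). Isotype replicate 5 is the highest isotype library for Gzma, Gzmb and Ccl5, and anti–IL-4Rα replicate 3 is the highest library of its group for Gzma and Gzmb.

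Markers of other cell types also differed between the groups. Over all genes tested, 9.53% were called higher and 7.49% lower in isotype against PBS. The shares were 2.28% and 1.44% in anti–IL-4Rα against PBS, and 6.73% and 8.13% in anti–IL-4Rα against isotype. A single call in a short list describes that gene only. Of 11 macrophage and dendritic cell markers, 8 were higher in isotype against PBS, and their sum ran from 368 to 384 CPM in the 5 PBS libraries, 468 to 1006 CPM in the isotype group and 448 to 630 CPM in the anti–IL-4Rα group. Under anti–IL-4Rα, 3 of them were higher than in PBS and 3 were lower than in isotype. Of 6 mast cell and basophil markers, 3 were higher in isotype against PBS, 1 in anti–IL-4Rα against PBS and 1 lower in anti–IL-4Rα against isotype. Of the Th2 genes, 3 of 7 tested were higher in isotype against PBS (Il4, Il13 and Il1rl1), none in anti–IL-4Rα against PBS, and 1 was lower in anti–IL-4Rα against isotype (Il1rl1). Il4 was low, with 3 to 10 counts in the PBS libraries and 12 to 33 in the isotype libraries. B and plasma cell markers summed to 1.88 to 4.95 CPM in the 5 PBS libraries, 10.9 to 64.4 CPM in the isotype group and 20.7 to 194 CPM in the anti–IL-4Rα group, where Jchain passed against PBS (1 of 4 genes in each comparison against PBS). Of the platelet markers, 2, 1 and none of 3 tested were called in the 3 comparisons. All 5 skeletal muscle markers were lower in isotype against PBS. None of them was called elsewhere in edgeR, although 4 were lower under anti–IL-4Rα against PBS and 1 higher against isotype at an unadjusted p under 0.05, and DESeq2 called 1 higher in the latter. Of the 6 epithelial markers, 1 was higher in isotype against PBS and 1 lower in anti–IL-4Rα against isotype. Without the 3 libraries richest in lacrimal markers, Jchain against PBS was the 1 call of these lists that stayed in a comparison with the anti–IL-4Rα group (log2 fold change 6.17, adjusted p = 0.0283). In that setting 19 genes in all were called in anti–IL-4Rα against PBS and 44 in anti–IL-4Rα against isotype. In isotype against PBS, the muscle marker Acta1 (adjusted p = 0.0743) and the platelet marker Pf4 (adjusted p = 0.0605) were then no longer called. The part of these cell types in the members' values was not tested.

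Inside the groups, Ccl5 varied together with Gzma more than with any other gene compared. Log2 CPM values were centered within each group, so that the differences between groups were removed, and Ccl5 was set against the 9 other members and 6 cell markers. Over the 15 libraries Ccl5 and Gzma gave Pearson's r = 0.809 (permutation p = 0.000250 within groups, adjusted p = 0.00375 over 15 relations) and Spearman's rho = 0.786 (permutation p = 0.00274, adjusted p = 0.0411). Without the 2 libraries farthest from the median, r was 0.750. Without isotype replicate 5 alone, r was 0.749 and the relation no longer passed (permutation, adjusted p = 0.121). Nkg7 gave r = 0.661 and rho = 0.632 (permutation, adjusted p = 0.118 and 0.120), and Ncr1 gave r = 0.635 and rho = 0.646 (adjusted p = 0.118 and 0.120). The other 12 relations, Gzmb and Gzmk among them, ran from r = 0.122 for Cd8a to r = 0.545 for Gzmb and did not pass. Tissue composition was not adjusted for in these correlations.

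**Figure D4:**
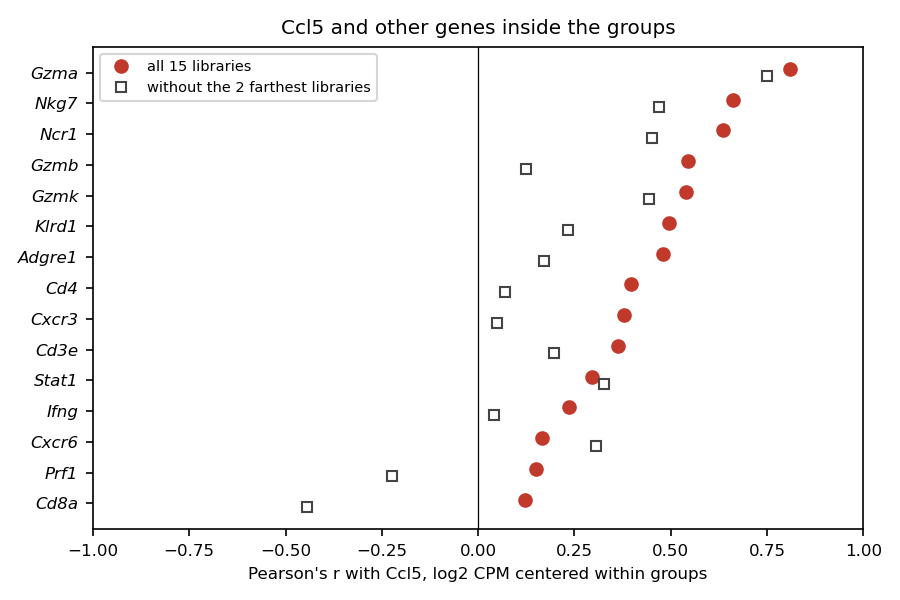
Pearson's r between Ccl5 and each of 15 genes (x axis, log2 CPM centered within groups), over all 15 libraries (filled) and without the 2 libraries farthest from the median (open). Gzma is highest at 0.809 and 0.750, while Cd8a goes from 0.122 to -0.445.

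Over all 15 libraries, uncentered, the genes with a pattern most like that of Ccl5 included Tram2 (r = 0.934), Cfb (0.914), Ccr2 (0.912) and Gm36161 (0.909), out of 15483 genes with a mean of at least 1 CPM. The group differences were left in, and Ccl5 was selected on its raised level under blockade. The ranking therefore partly restates that selection, and these values are a description over 15 libraries that fall in 3 groups. Ccr2, the monocyte chemokine receptor, averaged 12.9 ± 1.4, 33.7 ± 11.7 and 27.2 ± 8.4 CPM (SD, n = 5) in the PBS, isotype and anti–IL-4Rα groups. Cfb, complement factor B, averaged 42.3 ± 2.8, 57.1 ± 6.7 and 65.0 ± 13.5 CPM. None of these genes is a member of the set.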

How the data were processed

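The authors deposited a table of estimated counts (expected counts, 1 value per gene) for 15 conjunctiva libraries, not scaled for depth. By their methods, RNA libraries (a stranded mRNA kit) were trimmed of adaptors, filtered at a Q score of 20 and aligned, keeping unique hits, against mouse B38 with the Ensembl R100 gene model in Omicsoft Array Studio; its version, counting method and strand setting are not given in the sources used here. Between 6147 and 7906 genes per library had values that were not whole, and all were rounded. Groups came from the labels. Symbols, positions and exon lengths came from GENCODE M21 (55227 genes matched).

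The 19006 genes that reached 10 counts in 5 or more libraries were tested with edgeR 4.0.16 (quasi-likelihood, TMM factors of 0.803 to 1.11, 1 model over the 3 groups, two-sided, Benjamini-Hochberg adjustment, called under 0.05) in R 4.3.3. CPM used TMM library sizes, and log2 CPM a prior count of 2. The SE is the size of the log2 fold change divided by the square root of F. Correlations used 100000 permutations within groups. The code was tested on simulated data. Alternatives were DESeq2 1.42.0, limma 3.58.1 on log2(CPM + 1), upper-quartile factors, 2 other filters, only the 2 groups compared, a replicate block, a lacrimal score as covariate and each library left out. Leaving out 3 lacrimal-rich libraries was chosen after seeing the data. Named genes were the 10 members, the called genes of each pathway list (the 6 with the largest change where more were called) and the 5 genes most like Ccl5. Members were left out of that last ranking. Some genes that this rule names are not reported here. The members and lists were chosen with earlier results of these data known.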

Additional observations from a re-analysis of the deposited data

Results flagged for a closer look

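A library stood apart from the other 4 of its group in 2 of 30 gene and group combinations checked, where chance flags about 1 in 20. Gzma in isotype replicate 5 was 9.33 CPM, with 3.80 CPM in the nearest library and a gap of 0.852 of the range. Ifng in isotype replicate 2 was 0.450 CPM, with 0.123 CPM in the nearest library and a gap of 0.787 of the range.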

How the results depend on the processing

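In isotype against PBS, 6 of 7 tested members were called in all 9 alternatives and 5 to 6 with 1 library left out (genes called 1863 to 3936, against 3235 with all). In anti–IL-4Rα against PBS, 1 member and 707 genes were called. DESeq2 called 3 members and 1966 genes, limma 0 and 469, the lacrimal covariate 0 and 77, and leaving out the 3 lacrimal-rich libraries 0 and 19, while no filter called 327 genes; 1 library left out gave 0 to 2 members and 82 (without PBS replicate 1) to 2029 genes (without anti–IL-4Rα replicate 3). In anti–IL-4Rα against isotype, 2 members and 2826 genes were called, and the 9 alternatives called 0 to 5 members and 44 to 4045 genes. DESeq2 called 5 members, the fit of 2 groups only 1 member and 675 genes, no filter 1749 genes, the lacrimal covariate 880 genes and the fit without the 3 lacrimal-rich libraries 0 members and 44 genes; 1 library left out gave 2 to 4 members and 882 (without isotype replicate 3) to 4206 genes (without anti–IL-4Rα replicate 3). The causes were not tested.

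With the replicate block, 2115, 312 and 1859 genes were called in the 3 comparisons, and 6, 1 and 3 members. Same-numbered libraries correlated at -0.385 to 0.454 after group means were removed. Libraries of different numbers were not compared in this way, so these values cannot decide whether the numbers pair them.

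Cxcr6 changed sign in anti–IL-4Rα against PBS (0.18 with the covariate, 0.22 without the 3 libraries; -0.30 to 0.020 with 1 library left out), in anti–IL-4Rα against isotype (0.014 and 0.15) and in isotype against PBS (-0.028 to 0.17 with 1 library left out). With 1 library left out, the correlation of Ccl5 ran from -0.20 to 0.32 with Prf1 and from -0.010 to 0.41 with Cxcr6. The correlations that passed then numbered 0 to 2, and members whose groups did not overlap numbered 6 to 7, 1 to 3 and 1 to 3. Groups of fewer libraries overlap less often for any gene. The share over all genes with 1 library left out was not computed, so these member counts cannot be set against it. Ccl5 was 0.78 and 0.81 against PBS on log2(CPM + 1), a scale that understates low genes.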
